A study of Tigriopus californicus with 4 samples.

Results

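The contigs described are those of *Tigriopus californicus*, an intertidal copepod, whose assigned product name is that of a small heat shock protein. They were found by words in the name, ignoring case: small heat shock, hsp16, hsp20, alpha-crystallin, hsp beta or heat shock protein beta, with names that contain "interacting" or "binding" left out. The rule found 12 of the 20278 contigs with deposited values for San Diego (SD) and 10 of the 20931 for Santa Cruz (SC), 22 of 41209 in all. The assemblies that the paper describes held more contigs. Shares, ranks and medians over all contigs refer below to those with deposited values. The rule used names only and no expression values.

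The question was how the copepods' transcripts responded to an acute heat stress in a southern (SD) and a northern (SC) population. Both populations were kept in the laboratory at 20°C. The SD heat stress sample and the SC heat stress sample were held at 35°C for 1 h and then given 1 h of recovery at 20°C, and the SD control sample and the SC control sample stayed at 20°C. Each sample was 1 pool of 300 to 400 copepods with all developmental stages mixed, from which messenger RNA was sequenced as 1 library. No sequencing value therefore has a replicate, and no cell type or tissue was separated. The paper also repeated the stress on separate biological replicates and measured an hsp beta-1 and an hsp20 gene in them by qPCR. Those measurements are not used here. Fewer copepods or cells expressing a gene and less RNA in each of them cannot be told apart in such pools.

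Small heat shock proteins are chaperones that share an alpha-crystallin domain and assemble into large oligomers. They need no ATP: they hold partly unfolded proteins in a soluble state until chaperones that do use ATP, such as Hsp70 with its Hsp40 partners, refold them. Their genes are among those that heat shock transcription factors switch on in animals, and many are transcribed little in unstressed cells.

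Levels are in RPKM, the reads of a contig per kilobase of its length and scaled to the number of reads of the library, as the authors deposited them. The read totals behind these values, recovered from the values themselves, were 5583127 reads (SD heat stress), 1947202 (SD control), 4948622 (SC heat stress) and 3256758 (SC control). Fold changes are ratios of RPKM, heat stress over control, with 95% exact (Clopper-Pearson) intervals from the split of recovered reads, which cover counting error only. The reads given are the smallest whole numbers that fit a contig's values. A contig was called up- or down-regulated where Kal's *Z*-test on shares of the summed RPKM passed a Bonferroni threshold of 0.10 over all contigs of its population. Such a call compares 2 libraries and not 2 conditions. The heat stress libraries and the control libraries were run in different lanes, so lane and treatment cannot be told apart. The fold change of the median contig was 0.977 in SD and 1.32 in SC, or -0.03 and 0.40 on the log2 scale, and SC results are therefore also given relative to the median contig.

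In SD, 7 of the 12 small heat shock contigs were called up-regulated and 0 were called down-regulated, where 1.35% of all SD contigs were called up and 1.24% down. In SC, 5 of the 10 were called up-regulated and 0 down-regulated, where the test called 3.05% of all SC contigs up and 2.49% down. When the SC heat stress values were scaled so that the median contig did not change, 3 of the 10 were called up, with 1.07% of all SC contigs. Contigs at least 10-fold higher in the heat stress library numbered 5 in SD, where 0.567% of all contigs reached that fold, and 0 in SC, where 0.846% did. With a biological coefficient of variation of 0.4 assumed between pools, 5 of the 12 SD contigs were called up, with 0.0838% of all SD contigs, and 0 of the 10 SC contigs, with 0% of all SC contigs.

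The summed level of the small heat shock contigs was 9104 RPKM in the SD heat stress library, against 318 RPKM in the SD control library, a fold change of 28.6 (26.1 to 31.5). It was 1458 RPKM in the SC heat stress library, against 526 RPKM in the SC control library, a fold change of 2.77 (2.63 to 2.92), or 2.11 relative to the median contig. As a share of the summed RPKM of each library, the group took 1.07% after heat stress and 0.0375% in the control in SD. In SC its share was 0.145% after heat stress and 0.0468% in the control. The SD sum thus stood below the SC sum at 20°C and above it after the heat stress. The order at 20°C depends on 1 contig, SCN_Contig55664, which held 314 of the 526 RPKM of the SC control library (59.7%). Without it the SC sum would lie below that of SD. The SD and SC values come from separate assemblies and were normalized separately, and this difference in level was not tested.

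**Figure D1:**
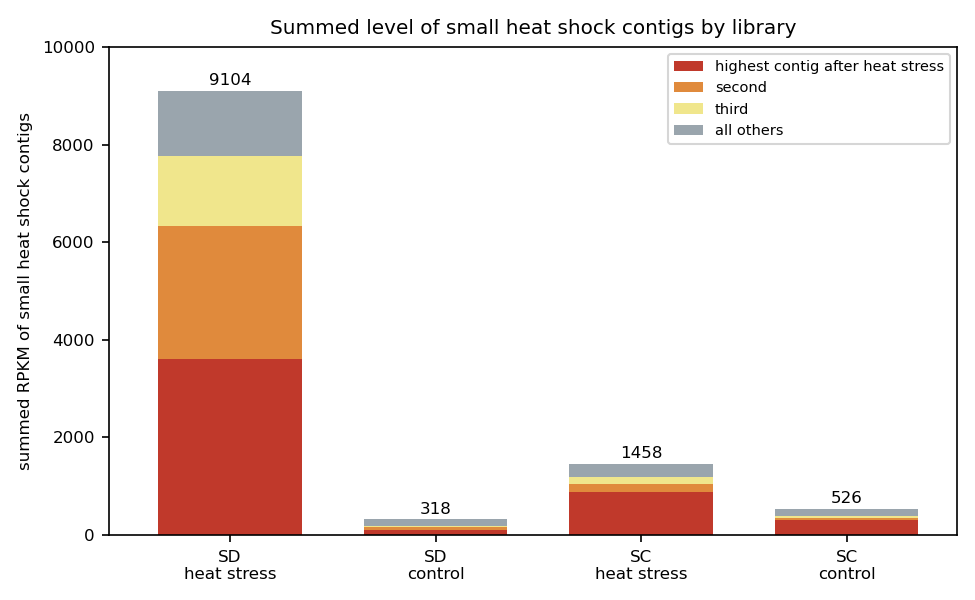
Summed RPKM of the small heat shock contigs (vertical axis, from 0) in each of the 4 libraries, with the heat stress library left of the control library of its population; each bar is 1 library and is divided into the 3 contigs highest after heat stress and all others. The SD heat stress bar reaches 9104 RPKM, against 318 RPKM for the SD control, and the SC heat stress bar 1458 RPKM, against 526 RPKM for the SC control.

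The members that lead the SD group carry 3 different names. SD_Contig64282, named after a mitochondrion-localized small heat shock protein of the plant *Arabidopsis*, had 3600 RPKM in the SD heat stress library (4864 reads), against 99.7 RPKM in the SD control library (47 reads). It was up-regulated 36.1-fold (27.1 to 49.2) and ranked 8 of 20278 contigs by heat stress level and 1120 by control level. The name is that of the best match in a database, and the location of the copepod protein was not measured.

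SD_Contig70407 is named hsp20 alpha-crystallin, after the family's shared domain. It had 2728 RPKM in the SD heat stress library (8743 reads), against 73.4 RPKM in the SD control library (82 reads), and was up-regulated 37.2-fold (29.9 to 46.8). The intervals of the fold changes of SD_Contig64282 and SD_Contig70407 overlapped, so these 2 contigs could not be ordered by fold change, while their heat stress levels were apart by more than counting error. SD_Contig70407 ranked 13 of 20278 contigs in the SD heat stress library.

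SD_Contig42679 showed the largest fold change of the SD group. It is named heat shock protein beta-1, the name of the vertebrate protein also called Hsp27, which binds unfolding proteins and is known to associate with the actin cytoskeleton. It had 1446 RPKM in the SD heat stress library (9403 reads), against 14.1 RPKM in the SD control library (32 reads). The fold change was 102 (72.5 to 149.9) and ranked 5 among the 19696 SD contigs above 0 in both libraries. Its interval lay above those of the other 8 members with reads in the SD control library. In the control library the same contig ranked 10051 of 20278 by level, near the median of 13.9 RPKM, and in the heat stress library it ranked 46.

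These 3 contigs together made up 85.4% of the summed small heat shock RPKM of the SD heat stress library, and SD_Contig64282 alone 39.5%. They were also the 3 members among the 100 contigs of highest RPKM in that library.

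**Figure D2:**
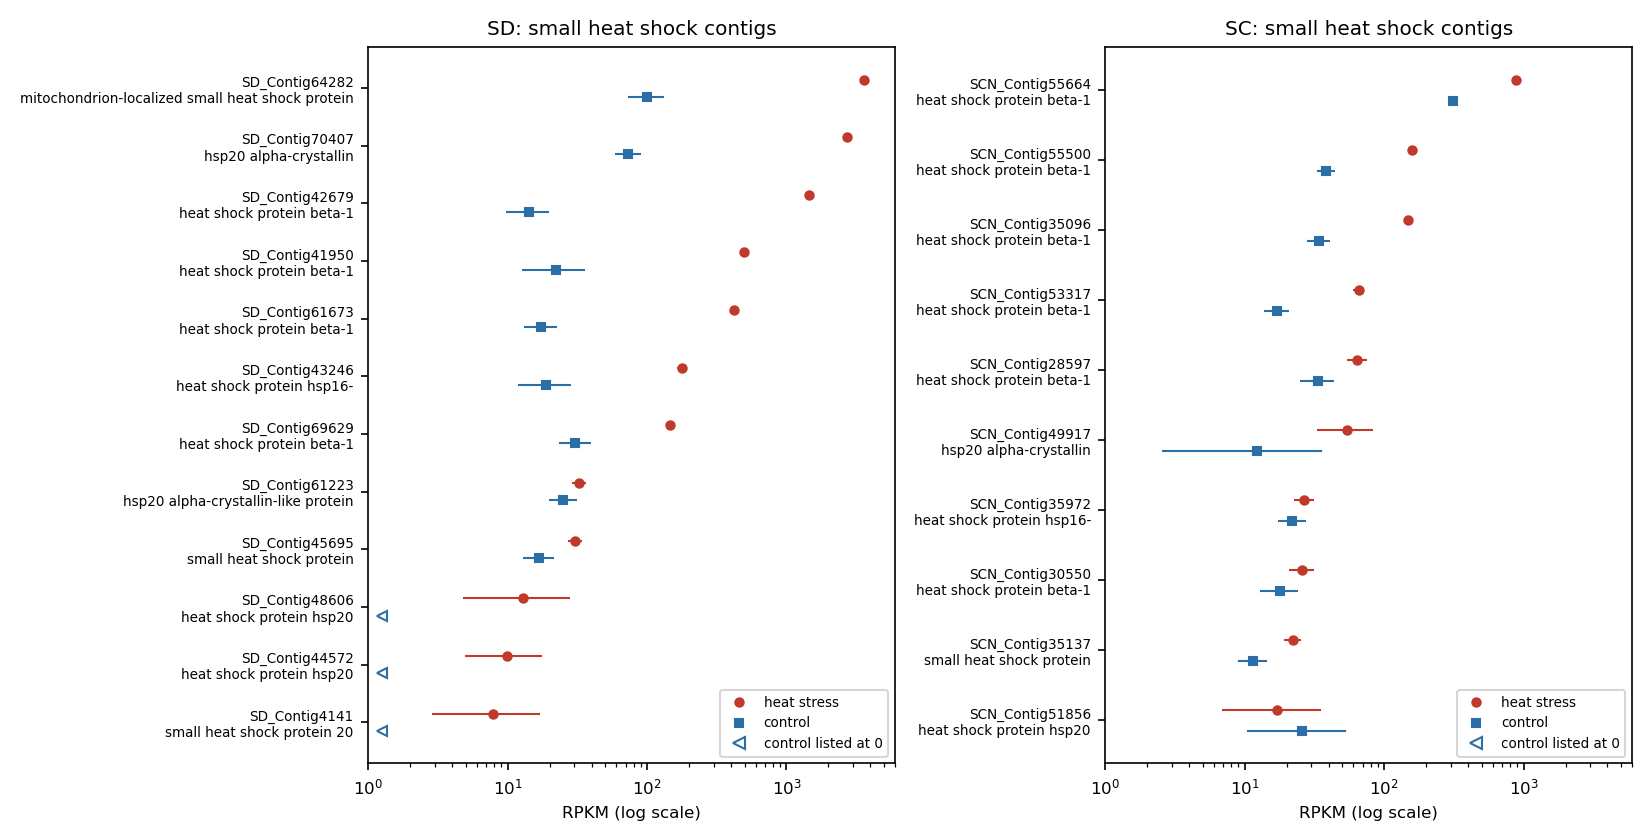
RPKM of each small heat shock contig (horizontal axis, log scale) in the heat stress library (circles) and the control library (squares) of SD (left) and SC (right), ordered by heat stress level; lines are 95% exact Poisson intervals of the recovered reads and open triangles mark a control value of 0. In SD, 7 contigs lie above 100 RPKM after heat stress and 0 in the control; in SC, 3 lie above 100 RPKM after heat stress and 1 in the control.

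The other 3 SD contigs with the name heat shock protein beta-1 were up-regulated as well. SD_Contig41950 had 495 RPKM in the SD heat stress library (1023 reads), against 22.2 RPKM in the SD control library (16 reads), a fold change of 22.3 (13.7 to 39.2). SD_Contig61673 had 417 RPKM in the SD heat stress library (3780 reads), against 17.4 RPKM in the SD control library (55 reads), a fold change of 24.0 (18.4 to 31.9). The intervals of these 2 fold changes overlapped widely.

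SD_Contig69629 showed the smallest fold change of the 4. It had 146 RPKM in the SD heat stress library (777 reads), against 30.6 RPKM in the SD control library (57 reads), and was up-regulated 4.75-fold (3.63 to 6.34). It had both the lowest heat stress level and the highest control level of the SD beta-1 contigs. Taken as a set, the 4 contigs ran from 146 to 1446 RPKM in the SD heat stress library and from 14.1 to 30.6 RPKM in the SD control library, so the ranges did not overlap. Their sum was 2503 RPKM after heat stress, against 84.3 RPKM in the control, a fold change of 29.7. Contigs of the same name may be separate genes, alleles or pieces of 1 transcript, which the files do not tell apart, and a sum can then count a gene more than once.

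SD_Contig43246 is named heat shock protein hsp16-, a name that in the nematode *Caenorhabditis elegans* belongs to small heat shock genes induced by heat. It had 179 RPKM in the SD heat stress library (599 reads), against 18.9 RPKM in the SD control library (22 reads), and was up-regulated 9.50-fold (6.21 to 15.3). It lay between the strongly changed contigs and SD_Contig69629. All 7 called SD contigs were called again by the test on recovered reads, which called 1.4% of all SD contigs up, and after scaling to the median contig, where 1.45% were called up. SD_Contig43246 and SD_Contig69629 were the 2 that were not called with the assumed biological variation.

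The remaining 5 SD contigs were not called. SD_Contig45695, named small heat shock protein, had 30.5 RPKM in the SD heat stress library (317 reads), against 16.8 RPKM in the SD control library (61 reads), a ratio of 1.81 (1.37 to 2.42). SD_Contig61223, named hsp20 alpha-crystallin-like protein, had 32.3 RPKM in the SD heat stress library (295 reads), against 25.1 RPKM in the SD control library (80 reads), a ratio of 1.29 (1.001 to 1.67). Their SD control levels were within the range of the up-regulated members, and their heat stress levels were below all of them. Both are among the longer contigs of the group, with at least 1860 and 1636 bp, and each was covered by over 60 control reads, so their small ratios do not rest on a few reads.

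The last 3 SD contigs were listed at 0 in the SD control library and had few reads after heat stress. SD_Contig48606, named heat shock protein hsp20, had 12.9 RPKM on 6 reads in the SD heat stress library, and SD_Contig4141, named small heat shock protein 20, had 7.84 RPKM on 6 reads. Both lie below the 3 reads that a control count of 0 allows at the depth of that library, 18.6 RPKM and 11.2 RPKM, and no fold change is given for them. SD_Contig44572, also named heat shock protein hsp20, had 9.80 RPKM on 11 reads in the SD heat stress library and 0 in the SD control library. Its ratio against 3 control reads was 1.28, and the lower end of the exact interval was 0.875. A difference in these 3 contigs was not detectable at this depth.

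Over the 9 SD members above 0 in both libraries, the median log2 fold change was 4.48 with a range of 0.36 to 6.68, beside -0.03 over all SD contigs. With the 3 contigs at 0 in the control set to their ratios against 3 reads, the median over 12 was 2.75. The median SD level was 162 RPKM after heat stress, against 18.1 RPKM in the control, beside medians over all SD contigs of 13.8 RPKM after heat stress and 13.9 RPKM in the control. At 20°C the median member was thus not far from an ordinary SD contig in level, though 9 of the 12 members lay above the median of all SD contigs. SD_Contig64282 and SD_Contig70407 ranked 1120 and 1648 of 20278 contigs in the control library. In the control library 7 of 8 neighbouring pairs in the order of SD levels had overlapping counting intervals, against 4 of 11 in the heat stress library, so that the members could be ordered by level mainly after heat stress.

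**Figure D3:**
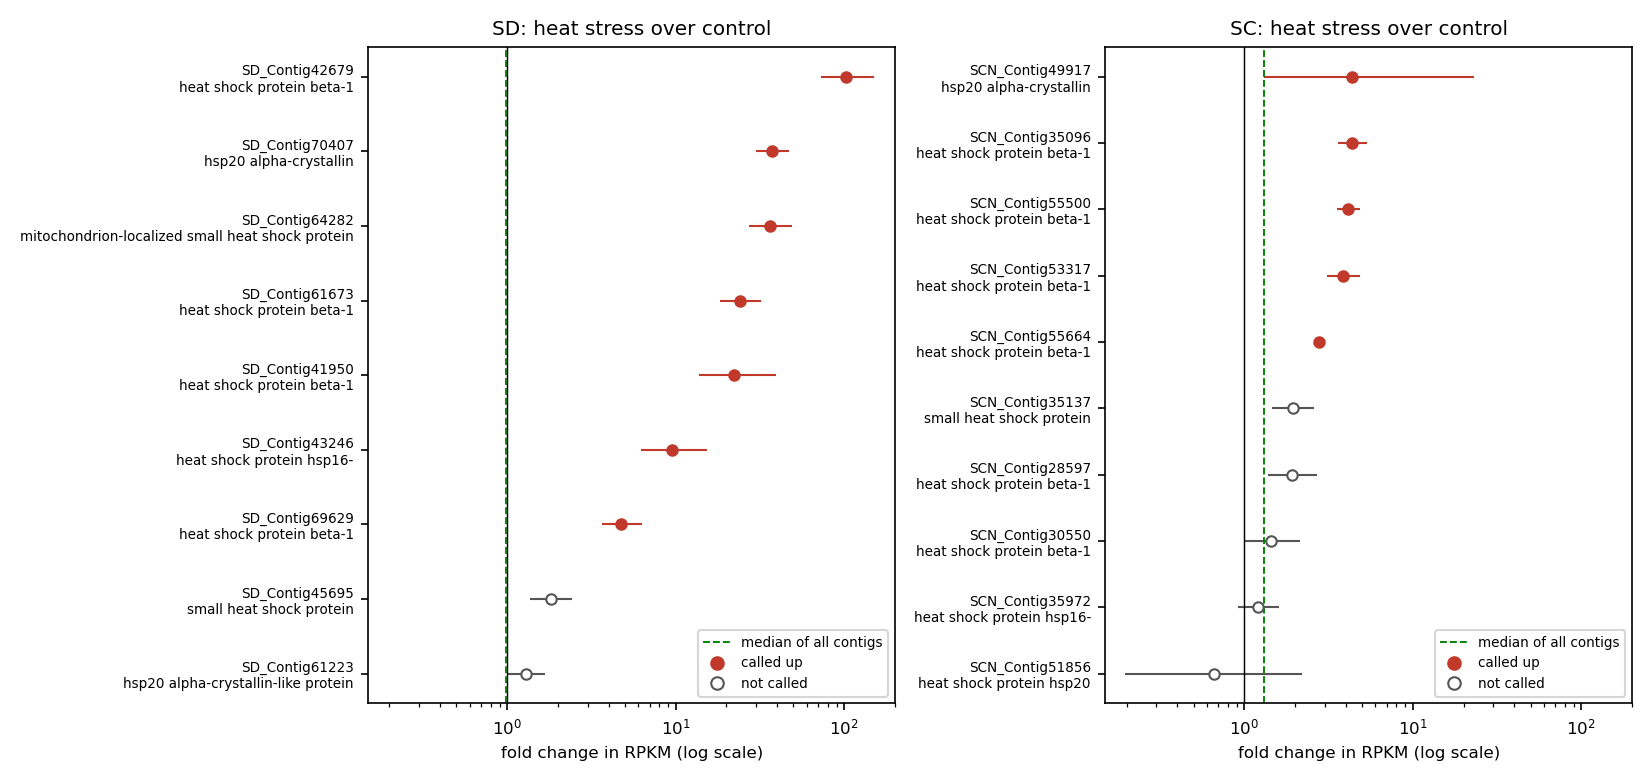
Fold change in RPKM, heat stress over control (horizontal axis, log scale), of each small heat shock contig above 0 in both libraries, for SD (left, 9 contigs) and SC (right, 10 contigs), with 95% exact intervals; filled circles were called up-regulated, open circles were not called, the solid line marks 1 and the dashed line the median of all contigs. SD values run from 1.29 to 102 and SC values from 0.658 to 4.39.

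The SC group is made mostly of contigs named heat shock protein beta-1, 6 of 10. SCN_Contig55664 had 876 RPKM in the SC heat stress library (4270 reads), against 314 RPKM in the SC control library (1008 reads), and was up-regulated 2.79-fold (2.60 to 2.99), or 2.12-fold relative to the median contig. It was by far the most abundant member in both SC libraries, with 60.1% of the summed small heat shock RPKM after heat stress and 59.7% in the control. It ranked 128 of 20931 contigs by level in the SC heat stress library and 564 in the SC control library. No SD member had a control level near that of SCN_Contig55664; the highest was 99.7 RPKM.

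SCN_Contig55500 had 159 RPKM in the SC heat stress library (1165 reads), against 38.5 RPKM in the SC control library (185 reads), a fold change of 4.14 (3.55 to 4.87). SCN_Contig35096 had 148 RPKM in the SC heat stress library (788 reads), against 34.0 RPKM in the SC control library (119 reads), a fold change of 4.36 (3.59 to 5.33). Both were called up-regulated before and after scaling to the median contig, with fold changes relative to it of 3.15 and 3.31. With the assumed biological variation neither was called. All 5 SC calls were lost under it, but it called 0 of all 20931 SC contigs up, so this loss does not set these contigs apart. Together with SCN_Contig55664 they made up 81.2% of the summed SC level after heat stress.

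SCN_Contig53317, also a beta-1 contig, had 65.6 RPKM in the SC heat stress library (522 reads), against 17.0 RPKM in the SC control library (89 reads). It was up-regulated 3.86-fold (3.08 to 4.89), but was not called after scaling to the median contig, where the fold change was 2.93. The last 2 beta-1 contigs were not called under either scale. SCN_Contig28597 had 64.1 RPKM in the SC heat stress library (149 reads), against 33.3 RPKM in the SC control library (51 reads), a ratio of 1.92 (1.39 to 2.70). SCN_Contig30550 had 25.6 RPKM in the SC heat stress library (92 reads), against 17.7 RPKM in the SC control library (42 reads), a ratio of 1.44 (0.990 to 2.13). In SC the contigs with the beta-1 name thus ran from 25.6 to 876 RPKM after heat stress and from 17.0 to 314 RPKM in the control. These ranges overlapped, also without SCN_Contig55664, at 25.6 to 159 RPKM and 17.0 to 38.5 RPKM. Their sum was 1339 RPKM after heat stress, against 455 RPKM in the control, a fold change of 2.94. Most of it came from SCN_Contig55664. The fold change of that contig is nearest to the paper's SC value for an hsp20 transcript, so it may not be a beta-1 gene. The SD and SC sets of this name may then hold different genes.

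SCN_Contig49917, the SC contig named hsp20 alpha-crystallin, had 53.9 RPKM in the SC heat stress library, against 12.3 RPKM in the SC control library, and was called up-regulated 4.39-fold. The value rests on 20 heat stress reads and 3 control reads of a contig that may be only 75 bp long, its interval runs from 1.30 to 23.1, and it was not called by the test on recovered reads or after scaling to the median contig. It carried the largest fold change of the SC group by value, but its interval contained those of the other 4 called contigs.

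The other 3 SC members were not beta-1 contigs and include the 2 with the smallest ratios. The hsp16- contig, SCN_Contig35972, had 26.5 RPKM in the SC heat stress library (147 reads), against 22.0 RPKM in the SC control library (80 reads), a ratio of 1.21 (0.915 to 1.61). It did not differ beyond counting error, and its ratio to the median contig was 0.919. SCN_Contig35137, named small heat shock protein, had 22.1 RPKM in the SC heat stress library (200 reads), against 11.4 RPKM in the SC control library (68 reads), a ratio of 1.94 (1.46 to 2.59). It was not called on RPKM but was called up by the test on recovered reads, which called 10.9% of all SC contigs up. SCN_Contig51856, named heat shock protein hsp20, had 17.0 RPKM in the SC heat stress library, against 25.9 RPKM in the SC control library, on 7 reads in each. Its ratio of 0.658 had an interval of 0.197 to 2.20, so no difference was detectable at this depth.

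Over the 10 SC members, the median log2 fold change was 1.22 with a range of -0.60 to 2.13, beside 0.40 over all SC contigs. Relative to the median contig it was 0.82. The median level was 59.0 RPKM after heat stress, against 23.9 RPKM in the control, beside medians over all SC contigs of 14.3 RPKM after heat stress and 10.9 RPKM in the control. Members at least 2-fold higher numbered 5 of 10, where 28.8% of all SC contigs were at least 2-fold higher. The same count was 7 of 12 in SD, where 9.55% were. In the SC libraries 6 of 9 neighbouring pairs in the order of levels overlapped after heat stress and 8 of 9 in the control, so SCN_Contig55664 was the only member that stood apart from its neighbour in the control.

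**Figure D4:**
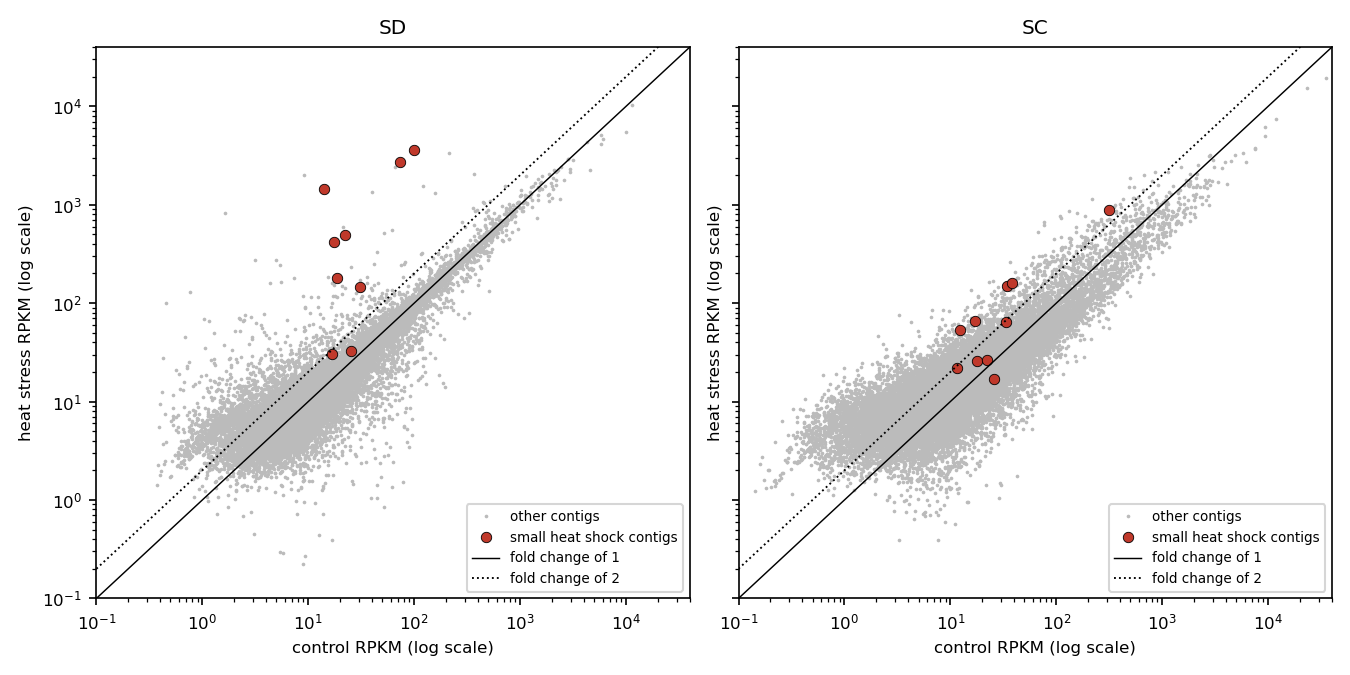
RPKM in the heat stress library (vertical axis, log scale) against RPKM in the control library (horizontal axis, log scale) for every contig above 0 in both libraries (grey) and for the small heat shock contigs (red), in SD (left, 9 red points) and SC (right, 10 red points); the lines mark fold changes of 1 and 2. The 7 called SD contigs lie above the line for a fold change of 2 and reach 3600 RPKM after heat stress; 5 of the 10 SC contigs lie above that line, and the group reaches 876 RPKM.

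The amplitude of the response could be set side by side between populations for names that stand on exactly 1 contig in each. A shared name does not show that the contigs are the same gene. The paper assigned orthologs by reciprocal best BLAST hits, but those pairs were not linked to the contigs here by sequence. Its fold changes for the hsp beta-1, hsp16 and hsp20 orthologs were higher in SD. For hsp16-, the SD fold change of 9.50 was 7.85 times the SC value of 1.21 (4.74 to 13.0), and 10.6 times it when each was taken relative to its median contig. The contigs named hsp20 alpha-crystallin differed in the same direction. Their SD fold change of 37.2 was 8.48 times the SC value of 4.39 (2.47 to 29.1), a ratio that rests on the 3 control reads of the SC contig. The paper also lists an hsp20 transcript of SC with no SD ortholog, which was too short to be submitted. Of its hsp20 transcripts, that one is nearest in fold change to the SC contig. The SD fold change is close to that of the paper's other hsp20 transcript, which has an ortholog in each population. The contigs of this name are thus probably different genes. For the name small heat shock protein, the SD ratio of 1.81 was 0.936 times the SC ratio of 1.94 (0.635 to 1.38). Relative to the median contigs that value was 1.26 (0.855 to 1.86), on the other side of 1, and both intervals included 1. Of the 3 names compared, 2 thus had a larger fold change in SD beyond counting error and 1 did not. Of those 2, the hsp20 alpha-crystallin pair probably does not compare copies of 1 gene. These intervals assume that reads vary only by counting.

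The beta-1 contigs could not be paired between populations by name, since the name stands on 4 SD and 6 SC contigs. The SD fold changes ran from 4.75 to 102 and those of SC from 1.44 to 4.36, so that the SD contig with the smallest value, SD_Contig69629, lay above the SC contig with the largest, SCN_Contig35096. The intervals of these 2 contigs overlapped, at 3.63 to 6.34 in SD and 3.59 to 5.33 in SC. The 2 contigs are the ends of their ranges and are probably not orthologs. By fold change, SD_Contig69629 is nearest to a beta-1 transcript of the paper whose SC ortholog is nearest to SCN_Contig28597. That SC contig had a ratio of 1.92 (1.39 to 2.70), an interval below that of SD_Contig69629. The mitochondrion-localized name, which led the SD group by level, was found on 0 SC contigs.

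Other chaperone names were counted by the same test, each group over contigs that match its name. In SD, 10 of 16 contigs of the hsp70 group, chaperones that refold proteins with ATP, were up-regulated and 0 were down-regulated. Their summed level was 5599 RPKM in the SD heat stress library, against 1355 RPKM in the SD control library, a fold change of 4.13. The hsp90 group, which holds chaperones of signalling proteins, had 3 of 6 SD contigs up-regulated and 2599 RPKM after heat stress, against 614 RPKM in the control, a fold change of 4.23. The summed level of the small heat shock contigs was thus above that of the hsp70 and hsp90 groups in the SD heat stress library and below both in the SD control library. These sums were not tested against each other. The hsp70 and hsp90 counts share the 2 SD contigs named as organizing proteins for both, and both contigs were up-regulated. SD_Contig62648 was the only up-regulated SD contig named as hsp90 itself. SD_Contig55178, of the same name, had 14.1 RPKM in the SD heat stress library, against 32.7 RPKM in the SD control library, and was not called. The hsp90 pattern also took in SD_Contig42117, named as the co-chaperone cdc37, and SD_Contig40687, named for a histidine kinase and hsp90-like domain. Neither was called.

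The groups with other roles held fewer called contigs in SD. The hsp40 group, co-chaperones that deliver proteins to Hsp70, had 1 of 7 SD contigs up-regulated. The hsp60 and hsp10 group, meant for the folding chambers of mitochondria and cytosol, had 0 of 9 called in either direction. It held no contig named hsp10. Its name pattern also took in SD_Contig68998, named t-complex protein 11-like protein 1, a name that is not of a chaperonin. In SC, 11 of 18 contigs of the hsp70 group were up-regulated and 1 was down-regulated, with 8 up and 1 down relative to the median contig. Its summed level was 6825 RPKM in the SC heat stress library, against 2722 RPKM in the SC control library, a fold change of 2.51. The hsp70 pattern also took in SCN_Contig30879, named as a metalloprotease with an hsp70 fold, which was not called. For the hsp90 group of SC, 2 of 5 contigs were up-regulated, both named as hsp90 itself. The 1 down-regulated contig, SCN_Contig46774, is named as an organizing protein for Hsp70 and Hsp90 and is the same contig that was down-regulated in the hsp70 count. The hsp90 group of SC also held SCN_Contig38304, named for a histidine kinase and hsp90-like domain, which was not called. The hsp40 group had 0 of 7 SC contigs called, with 1 called down relative to the median contig. The hsp60 and hsp10 group had 0 of 12 up-regulated and 2 down-regulated, with 4 called down relative to the median contig. In SC too it held no contig named hsp10, a gene that the paper reports as down-regulated there. It also took in SCN_Contig34978 and SCN_Contig33300, named t-complex protein 11-like protein 1 and t-complex protein 10a-like.

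Side by side, the median log2 fold changes in SD were 4.48 for the small heat shock contigs, 1.24 for the hsp70 group, 0.93 for the hsp90 group, 0.19 for the hsp40 group and 0.11 for the hsp60 and hsp10 group. The SC medians were 1.22 for the small heat shock contigs, 0.74 for hsp70, 1.39 for hsp90, 0.11 for hsp40 and -0.14 for hsp60 and hsp10. In SD the small heat shock median was the highest of the 5, and in SC that of hsp90 was. The SC hsp90 median is the value of SCN_Contig46999, named as the co-chaperone cdc37, with 39.7 RPKM after heat stress, against 15.1 RPKM in the control, which was not called. Contigs at 0 in the control, 3 small heat shock and 2 hsp70 contigs of SD, have no log2 fold change and are not in these medians.

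**Figure D5:**
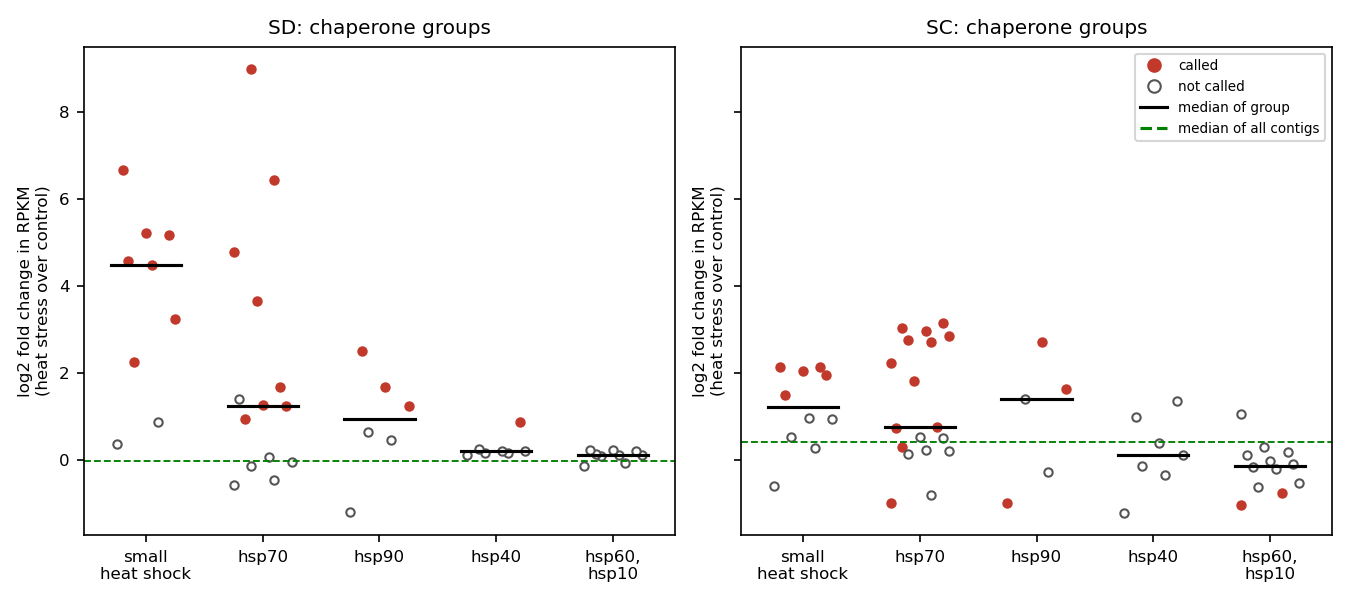
Log2 fold change in RPKM, heat stress over control (vertical axis), of the contigs in 5 chaperone groups in SD (left) and SC (right); filled circles were called, open circles were not, bars are group medians and the dashed line is the median of all contigs. The small heat shock median is 4.48 in SD and 1.22 in SC.

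The contigs with a product name whose pair of levels lay nearest to that of the leading member were found by the distance between log2(RPKM + 1) values over the 2 libraries of a population. In SD, the nearest to SD_Contig42679 was SD_Contig68675, named loc560210 protein, with 1999 RPKM in the SD heat stress library, against 9.15 RPKM in the SD control library, at a distance of 0.74. It was the only contig other than the small heat shock contigs within a distance of 1. The next were SD_Contig69651, named Sequestosome-1, with 547 RPKM after heat stress, against 62.2 RPKM in the control, at 2.50, and SD_Contig35719, named sequestosome 1-like, with 332 RPKM, against 44.1 RPKM, at 2.64. Sequestosome-1, also called p62, is a receptor that delivers ubiquitin-tagged proteins to autophagy.

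In SC the leading member by the lower end of its fold interval, SCN_Contig35096, had 180 other contigs within a distance of 1. The nearest was SCN_Contig55845, a hypothetical protein with its best match in the bacterium *Bacteroides*, with 138 RPKM in the SC heat stress library, against 33.2 RPKM in the SC control library, at a distance of 0.11. SCN_Contig55992, named conserved protein, followed at 0.12, and SCN_Contig55830, with its best match in *Vibrio*, at 0.16. The pattern of SCN_Contig35096 was thus near that of many contigs. Neighbours of the other SC members were not counted.

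Contigs whose best match names 1 of 15 bacterial genera moved with the libraries, in opposite directions in the 2 populations. In SC there were 98 of them, with a median log2 fold change of 1.41 and 2.33% of the summed RPKM of the heat stress library, against 1.14% in the control. In SD there were 74, with a median of -1.18 and 0.361% of the summed RPKM after heat stress, against 0.669% in the control. The median over the other SC contigs was 0.39, close to that over all of them. The genera were chosen after product names had been seen, and their part in the small heat shock values was not tested.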

How the data were processed

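Messenger RNA libraries of 4 copepod pools were sequenced. Per the study's methods, the authors trimmed and assembled the reads of each population with earlier reads, named contigs by BLASTX, aligned the reads of a library to the assembly of the same population in CLC Genomics Workbench and deposited RPKM values per contig. The mapping kept near-identical matches, so reads from close copies may be split or lost.

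Groups were taken from the sample labels. The RPKM values were used as deposited. Kal's *Z*-test was run two-sided on each contig's share of the library's summed RPKM, with a Bonferroni threshold of 0.10. It ran over all 20278 SD and 20931 SC contigs with deposited values. A search found the read totals and, for each contig, the smallest length at which both libraries hold whole reads, and these reads give the exact Clopper-Pearson and Poisson intervals. Reads and lengths are minima, and all intervals cover counting error only. Intervals of ratios between populations are normal approximations on the log scale. A control value of 0 was set against 3 reads.

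Every contig found by the name rule is named, with the 3 contigs nearest to the leading called member. The members and lists were chosen with earlier results of these data known. The steps were checked on simulated libraries. Alternatives covered thresholds, tests, filters, scaling, an assumed biological variation, added RPKM and a wider name rule. Python 3.11.15, NumPy 2.4.6, SciPy 1.17.1, pandas 2.3.3 and matplotlib 3.10.9 were used. No contig sequence was analysed here.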

Additional observations from a re-analysis of the deposited data

Results flagged for a closer look

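For 2 of the 3 product names that stand on exactly 1 contig in each population, the fold change differed between SD and SC beyond counting error. For heat shock protein hsp16-, the SD fold change was 7.85 times that of SC (95% interval 4.74 to 13.0), with 179 RPKM after heat stress, against 18.9 RPKM in the control in SD, and 26.5 RPKM after heat stress, against 22.0 RPKM in the control in SC. For hsp20 alpha-crystallin, it was 8.48 times that of SC (2.47 to 29.1), with 3 reads in the SC control library. The ratios compare single pooled libraries. The contigs were paired by name and not by the paper's reciprocal BLAST, in which an hsp20 transcript of SC has no SD ortholog. By its fold change and short length, the SC hsp20 alpha-crystallin contig is probably that transcript. Its ratio then compares different genes. Whether the contigs of a pair are the same gene was not tested here.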

How the results depend on the processing

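Of 50 combinations of a result and an alternative, 41 kept their direction and their value within the limits set (counting error, or 1.5 times a count) and 0 reversed. In SD the fold change of the summed level, 28.6, was 25.2 without the contig of highest heat stress level and 23.0 from summed reads. In SC, scaling by the median ratio or by a trimmed mean of ratios gave 3 called contigs in place of 5, and a fold change of the sum of 2.11 or 2.12 in place of 2.77. The sum of recovered reads gave 2.93. With an assumed biological coefficient of variation of 0.4, 0 SC contigs and 5 SD contigs were called, with 0% of all SC and 0.0838% of all SD contigs called up. At a fold of 4 in place of 2, 3 SC contigs counted as higher in place of 5. Counts of called contigs under the other alternatives ran from 7 to 9 in SD and from 4 to 6 in SC. No paired analysis was possible because each condition has 1 library per population and the labels carry no replicate numbers, and for the same reason no replicate could be left out. Members with fewer than 10 control reads, 3 in SD and 2 in SC, are too shallow for a change of modest size to be seen.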

Other observations

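In *Drosophila*, the gene lethal (2) essential for life encodes a small heat shock family protein, and 7 contigs that the name rule did not take carry its name. The SD contigs did not share a direction. SD_Contig61788 fell to 196 RPKM in the SD heat stress library, against 315 RPKM in the SD control library, a fold change of 0.623 (0.569 to 0.683). SD_Contig37789 rose to 119 RPKM in the SD heat stress library, against 48.9 RPKM in the SD control library, a fold change of 2.44 (1.96 to 3.08). SD_Contig35661, named with the addition efl21, had 52.6 RPKM after heat stress, against 37.8 RPKM in the control, and was not called.

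In SC, the efl21 contig SCN_Contig30211 rose to 64.9 RPKM in the heat stress library, against 19.0 RPKM in the control library, a fold change of 3.41 (2.93 to 3.99), and was not called relative to the median contig. The other 3 SC contigs were not called. SCN_Contig35132 had 63.8 RPKM after heat stress, against 44.8 RPKM in the control, and SCN_Contig62842 had 33.0 RPKM, against 18.4 RPKM. SCN_Contig34908 had 56.2 RPKM after heat stress, against 73.5 RPKM in the control, a ratio of 0.764 (0.654 to 0.893). SD_Contig61788 had a higher control level than the 12 SD small heat shock contigs described above and was the only contig of either set called down-regulated.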
